A study of Homo sapiens with 6 samples.

Results

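DNA replication needs origins to be licensed, a helicase to be loaded and switched on, polymerases and a sliding clamp to copy the strands, and a supply of deoxynucleotides. The genes for these steps were followed here in HEK293 derivatives that carry APE1 transgenes. The members are 45 listed genes, placed by role into origin licensing, helicase, polymerase, clamp and nucleotide supply groups. A member was measured by the array row whose only gene symbol is that gene. By this rule 41 of the 45 were measured, out of 12448 genes with such a row, and each of the 41 had 1 row. The rows of MCM7, POLA1, PCNA and RPA3 carry further gene symbols, so these 4 are not reported. All 41 measured members also passed the filter on dim rows, which kept rows with a mean log2 level of at least 5.03.

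Total RNA was hybridised to Affymetrix whole-transcript arrays from 3 tet-on derivatives of HEK293, an established human embryonic kidney line. The wtAPE1 line has inducible wild-type APE1, a base excision repair enzyme that cuts DNA at abasic sites. The ubAPE1 line has an inducible fusion of ubiquitin to APE1. The vector line has the pcDNA-FRT vector with no insert. Doxycycline, which switches the transgene on, was given at 2 µg per ml for 16 h or left out in each line. The medium of all 6 groups held 1 µg per ml puromycin. Each group is 1 deposited column, the authors' mean of 3 biological replicates, so the spread between replicates is not in the values and the number of columns limits the precision. The labels do not say whether a line is 1 clone, and a difference between lines cannot be told apart from a difference between clones or passages.

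APEX1, which encodes APE1, was at 10.71 log2 in the wtAPE1 line with doxycycline and 9.62 without, at 10.68 and 9.75 in the ubAPE1 line, and at 9.60 and 9.41 in the vector line. It was 2.13-fold, 1.89-fold and 1.14-fold higher with doxycycline in the 3 lines, and the 2 induced APE1 columns were the highest of the 6. Levels throughout are log2 values after each column was shifted to a common median, and a difference of log2 levels is therefore relative to the median row. The shifts ran from -0.13 to 0.12 log2. By the test described below, 4 of 10 kidney and epithelial markers were lower than in the vector line in both APE1 lines (MAL2, EPCAM, KRT19 and LRP2), and 1 passed as higher for wtAPE1 cells (LHX1, at 0.57 log2 there and 0.53 for ubAPE1 cells). Of 4 neuronal markers, ENO2 and NEFL were lower in both and SYP passed as higher for ubAPE1 cells (0.29 and 0.62). Of 4 fibroblast markers, SPARC and COL3A1 were higher in both, as was LCP1 of 3 blood cell markers (3.48 and 3.72). CD68, another of these 3, was at -0.25 and -0.35 and did not pass. The median blood cell marker was at 0.22 and 0.0040, so the 3 did not rise as a set. Summed over the 10 measured kidney and epithelial markers, linear levels stood at 2108 and 2201 in the wtAPE1 line, at 2337 and 1787 in the ubAPE1 line and at 2916 and 2769 in the vector line, with and without doxycycline. For 4 fibroblast markers the sums were 355.1 and 374.3, 373.9 and 363.4, and 177.3 and 166.6, and for 3 blood cell markers 348.2 and 327.8, 368.6 and 352, and 163.9 and 171.6. For 4 neuronal markers they were 776.7 and 717.8, 772.1 and 768.5, and 1138 and 1182. The lists had held 11 kidney and epithelial, 8 neuronal, 8 fibroblast and 8 blood cell markers. Of the blood cell list, 3 were below the filter and 2 had no row. None of the 5 endothelial markers was kept. The part of these marker differences in the results below was not tested.

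Licensing begins when the origin recognition complex, ORC1 to ORC6, binds DNA and, with CDC6 and CDT1, loads the MCM2 to MCM7 ring. CDC45 and the GINS proteins then turn the ring into an active helicase, and primase, polymerases, the clamp loader and the clamp follow. Many of these genes are transcribed in late G1 and S phase under E2F factors, so their mRNA levels move with the share of cycling cells.

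Of the 4 members with the largest difference between lines, only MCM8 passed the test described below. The sequences below are the 250 bases before the annotated start of these 4 members, which were chosen by that size alone. They are from RefSeq (GRCh38.p14), read 5′ to 3′ on the gene's strand, and capitals mark a match to 1 of 3 kinds of word on either strand. The words are E2F-type (TTTCCCGC, TTTCGCGC, TTTGCCGC, TTTGGCGC), the CCAAT box (CCAAT) and the cell cycle homology region (TTTGAA), and no words overlap in these windows. MCM8 lies on the + strand at chr20:5950402-5950651, GINS1 on the + strand at chr20:25407423-25407672, RFC3 on the + strand at chr13:33817899-33818148 and PRIM1 on the - strand at chr12:56752324-56752573.
MCM8: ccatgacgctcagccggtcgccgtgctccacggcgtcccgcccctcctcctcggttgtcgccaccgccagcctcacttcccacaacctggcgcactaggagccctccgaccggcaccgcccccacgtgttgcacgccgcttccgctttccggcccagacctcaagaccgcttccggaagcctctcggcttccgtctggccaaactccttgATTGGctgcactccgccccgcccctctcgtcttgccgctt
GINS1: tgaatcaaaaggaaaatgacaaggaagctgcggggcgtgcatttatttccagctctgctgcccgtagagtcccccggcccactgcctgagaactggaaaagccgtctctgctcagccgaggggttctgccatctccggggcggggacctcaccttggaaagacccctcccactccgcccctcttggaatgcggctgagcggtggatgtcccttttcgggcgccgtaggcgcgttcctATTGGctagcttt
RFC3: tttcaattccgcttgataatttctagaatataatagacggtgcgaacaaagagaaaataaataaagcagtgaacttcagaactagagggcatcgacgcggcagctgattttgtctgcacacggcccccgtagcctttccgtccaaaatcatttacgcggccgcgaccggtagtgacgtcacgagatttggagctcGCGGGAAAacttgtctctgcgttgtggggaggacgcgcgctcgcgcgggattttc
PRIM1: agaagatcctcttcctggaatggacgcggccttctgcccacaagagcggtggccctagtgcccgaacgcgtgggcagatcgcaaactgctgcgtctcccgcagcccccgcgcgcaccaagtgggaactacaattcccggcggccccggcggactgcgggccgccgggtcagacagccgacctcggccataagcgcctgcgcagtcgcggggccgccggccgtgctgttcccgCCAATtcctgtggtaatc
RFC3 has 1 E2F-type word, while MCM8, GINS1 and PRIM1 each have 1 CCAAT box. Of the 41 members, 36 had a window of this kind. An E2F-type word was found in 9 of the 36 (25%), among them CDT1, MCM3, MCM6, ORC3, POLE and TYMS, against 589 of 15843 protein-coding genes (3.72%). A CCAAT box was found in 20 of 36 (55.6%), against 34.5% of all, and the cell cycle homology word in 1, RRM1 (2.78%), against 10.8%. A match is a description of the letters in this window, and the share in members was not tested.

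**Figure D1:**
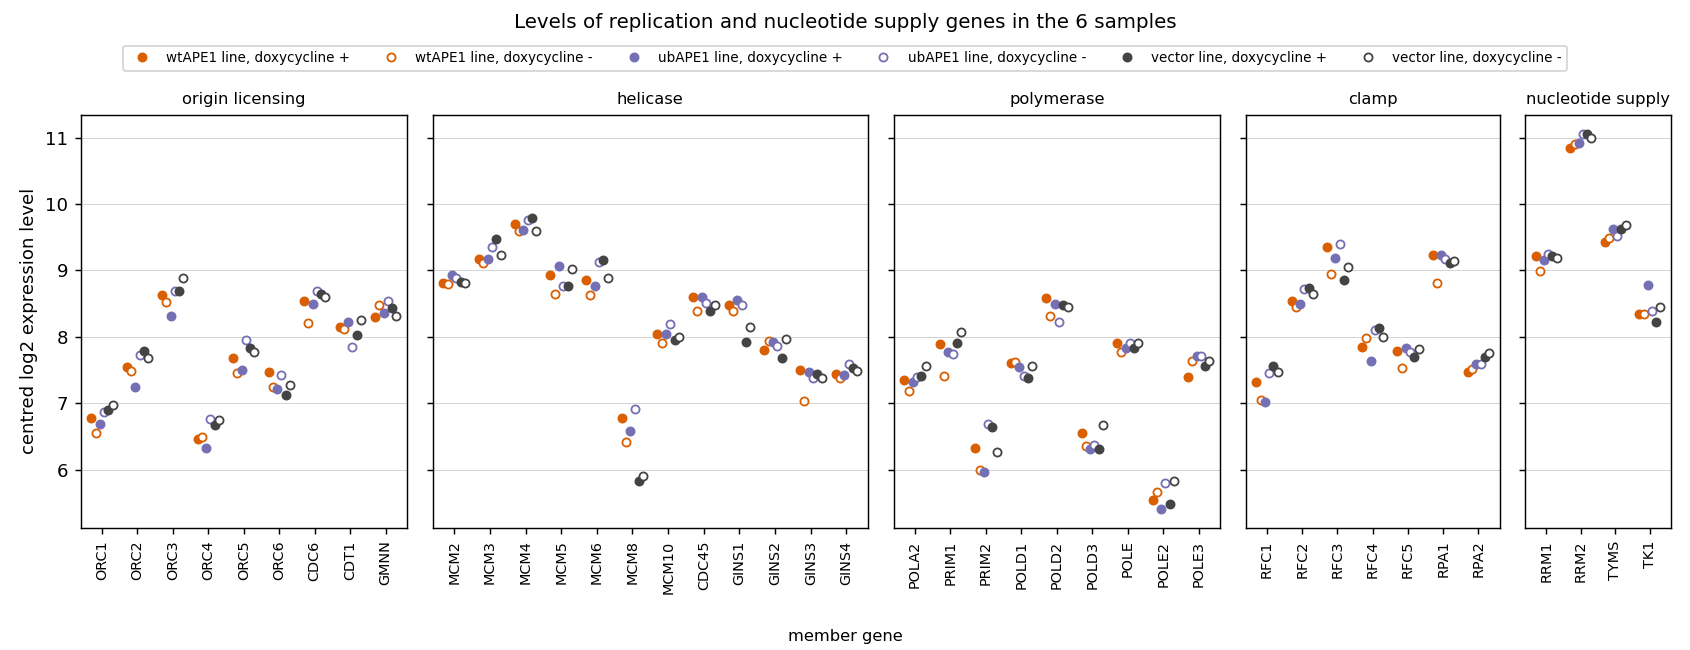
Log2 levels (vertical axis, columns centred to a common median) of the 41 measured members by role group. Each point is 1 averaged sample, filled with doxycycline and open without. Most members keep their 6 points close together, with a median range of 0.37 log2, while the vector points of MCM8 lie below the other 4.

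The range over the 6 samples had a median of 0.37 log2, against 0.43 over all 11619 kept rows. It was smallest for the helicase subunit MCM2 (0.13) and the catalytic subunit of polymerase epsilon POLE (0.15), and largest for MCM8 (1.08), the primase subunit PRIM2 (0.72) and its partner PRIM1 (0.67). The wtAPE1 column without doxycycline was the lowest of the 6 for 18 of 41 members, against 18% of all kept rows. The vector column without doxycycline was the lowest for 0 members, against 20.6% of rows. In bulk samples fewer cells in S phase and less RNA per cell cannot be told apart.

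The lines were compared first, over both doxycycline states. The test was limma on an additive fit of line and doxycycline, with both doxycycline states of a line taken as its replicates, and p-values were adjusted by Benjamini-Hochberg across the 11619 rows and called under 0.05. Against the vector line, 1 of 41 members was higher in the wtAPE1 line, where 5.65% of all kept rows were called and 1.62% were higher. In the ubAPE1 line 1 of 41 was higher, where 4.64% of rows were called and 1.08% were higher. In both cases it was MCM8. No member was lower, against 4.03% of rows for the wtAPE1 line and 3.55% for the ubAPE1 line. The count of members called was therefore close to the background. Over all rows the split was 188 higher and 468 lower for the wtAPE1 line and 126 and 413 for the ubAPE1 line, and with the columns as deposited 12 and 233, and 10 and 152. At an unadjusted p under 0.05, 2 members were higher in each line, MCM8 and GINS1, and 0 were lower, where 20.5% of all rows for the wtAPE1 line and 13.6% for the ubAPE1 line were under 0.05 in either direction. The median member was at -0.10 log2 in the wtAPE1 line, with 9 above 0 and 32 below. It was at -0.03 in the ubAPE1 line, with 17 above and 24 below. Over the 11619 rows, 6257 lay above 0 for the wtAPE1 line and 6550 for the ubAPE1 line, with a median of 0.03 in each. Both comparisons subtract the same 2 vector columns.

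MCM8, an MCM family helicase that acts with MCM9 in recombination repair and stands outside the MCM2 to MCM7 ring, was at 6.79 log2 in the wtAPE1 line with doxycycline and 6.41 without, at 6.58 and 6.91 in the ubAPE1 line, and at 5.83 and 5.90 in the vector line. All 4 APE1 line samples lay above both vector samples. The share of all kept rows separated in this way was not counted, here or for the members below. Such an order of columns carries no test. Members described this way were named for the size of their line difference in these same columns. The order therefore adds no support to those differences. The difference was 0.73 ± 0.18 log2 (SE), or 1.66-fold, for the wtAPE1 line (adjusted p by limma = 0.00171) and 0.88 ± 0.18, or 1.84-fold, for the ubAPE1 line (limma adjusted p = 5.60e-05). With doxycycline it was 0.95 and 0.75 log2 in the wtAPE1 and ubAPE1 lines, and without it 0.52 and 1.02, so it was also measured without doxycycline. APEX1 without doxycycline was 0.21 and 0.34 log2 above the vector line. The call did not hold with the columns as deposited (0.56 and 0.77 log2, adjusted p = 0.258 and 0.179). It was also lost with the prior degrees of freedom of that fit in place of the infinite ones found on centred columns (adjusted p = 0.176 and 0.106), a setting chosen after seeing the data.

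GINS1, a subunit of the GINS complex, was at 8.48 log2 in the wtAPE1 line with doxycycline and 8.39 without, at 8.55 and 8.48 in the ubAPE1 line, and at 7.93 and 8.15 in the vector line. Again the 4 APE1 line samples lay above both vector samples. The differences were 0.39 ± 0.18 (limma adjusted p = 0.187) and 0.47 ± 0.18 log2 (adjusted p = 0.117), and neither passed.

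MCM8 and GINS1 are the 2 measured members on chromosome 20. The 299 kept rows of chromosome 20 had a median difference from the vector line of 0.34 log2 for wtAPE1 cells and 0.31 log2 for ubAPE1 cells. Of these rows 285 lay above 0 for wtAPE1 cells and 284 for ubAPE1 cells, and 9.70% and 13.4% were called higher. Chromosome 18 lay at -0.42 and -0.35, and the other 21 chromosomes had medians between -0.12 and 0.21 for wtAPE1 cells and between -0.09 and 0.21 for ubAPE1 cells. The nearest measured genes to MCM8 in gene order differed likewise, with TRMT6, a tRNA methyltransferase subunit, at 0.64 and 0.67 and the cardiolipin synthase CRLS1 at 0.73 and 0.76. The neighbours of GINS1 were at -0.03 and 0.13 (ABHD12) and at 0.46 and 0.26 (NINL). The median of each chromosome was then removed from each column, a setting chosen after seeing the data. MCM8 stood there at 0.42 and 0.56 log2 (limma adjusted p = 0.269 and 0.221) and GINS1 at 0.08 and 0.15. In that setting the SE differed between rows (0.19 log2 for MCM8 and 0.145 for GINS1). The lost call of MCM8 therefore mixes the removed medians with a changed variance model. DNA copy number was not measured, and the part of the chromosome-wide shift in these differences was not tested otherwise.

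**Figure D2:**
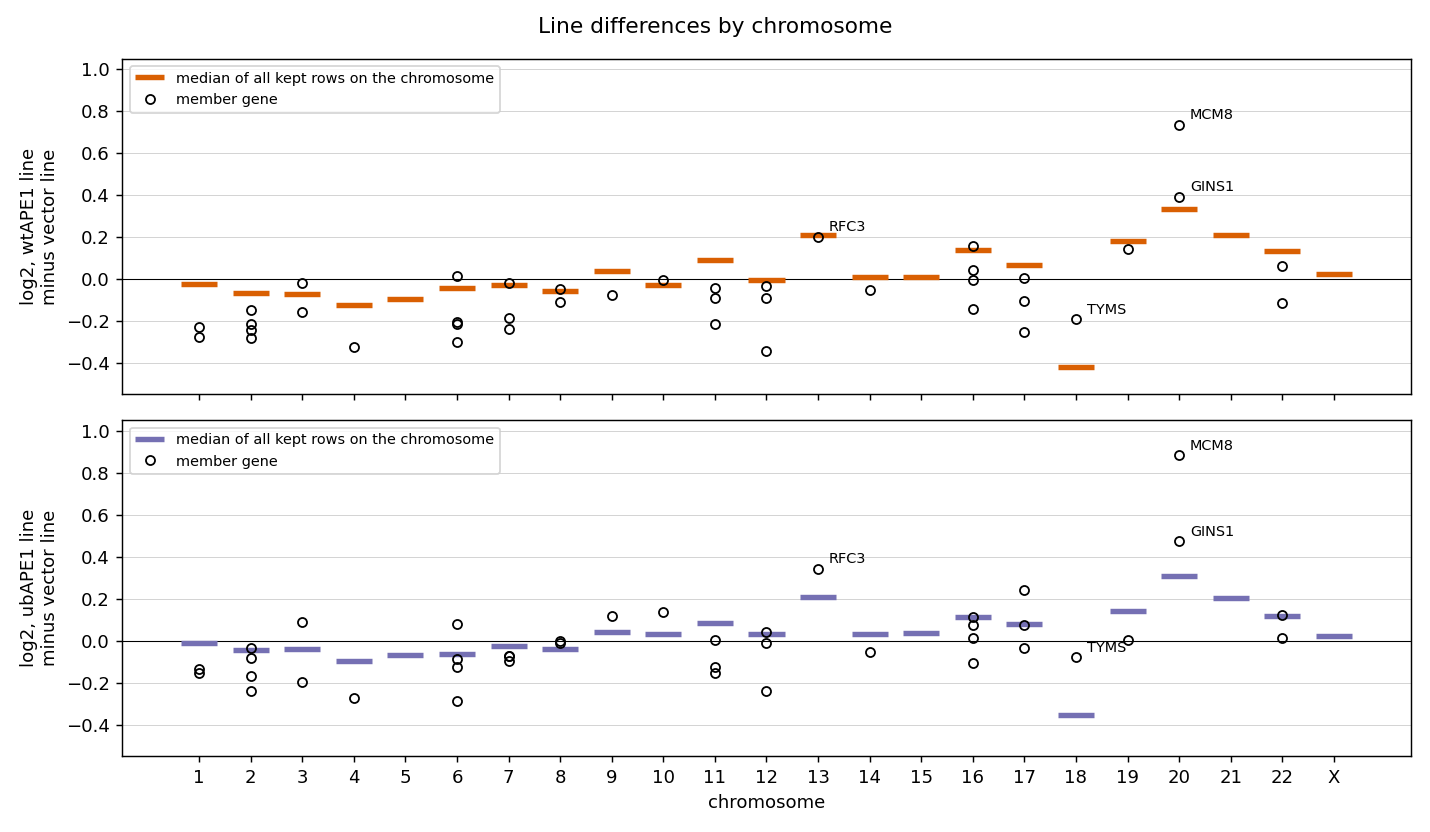
Log2 difference from the vector line (vertical axis) by chromosome, for the wtAPE1 line above and the ubAPE1 line below. Thick lines are the median of all kept rows on a chromosome and circles are members. Chromosome 20 lies highest, at 0.34 and 0.31, with MCM8 and GINS1 above its median, and chromosome 18 lowest.

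In the origin licensing group, 0 of 9 members passed in either line. The medians were -0.22 log2 for the wtAPE1 line and -0.11 for the ubAPE1 line, against 0.03 over all kept rows in both. ORC1, the ATPase subunit of the origin recognition complex, was at 6.77 and 6.55 in the wtAPE1 line, at 6.69 and 6.87 in the ubAPE1 line and at 6.90 and 6.97 in the vector line, with and without doxycycline. All 4 APE1 line samples lay below both vector samples, and the differences of -0.28 and -0.16 did not pass. ORC3 was at 8.63 and 8.52, at 8.32 and 8.69, and at 8.70 and 8.89 in the same order. Its 4 APE1 line samples lay below both vector samples, the nearest (8.69 against 8.70) by very little, and the differences of -0.22 and -0.29 did not pass. ORC6, which binds the complex most loosely, had values on the other side of 0, at 0.16 and 0.11, while CDT1, a loader of the MCM ring, was at -0.01 and -0.11. ORC2, ORC4, ORC5 and CDC6, the other MCM loader, lay between -0.25 and -0.03. The CDT1 inhibitor geminin (GMNN) was at 0.01 and 0.08.

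The helicase group outside MCM8 and GINS1 stayed within 0.28 log2 of the vector line. Of the ring subunits, MCM6 was at -0.28 and -0.08, MCM3 at -0.21 and -0.08, MCM5 at -0.11 and 0.01, MCM4 at -0.05 and 0.00 and MCM2 at -0.02 and 0.09 in the wtAPE1 and ubAPE1 lines. CDC45 was at 0.06 and 0.12, and MCM10, which helps start the helicase, at -0.01 and 0.14. GINS2, GINS3 and GINS4 did not share the values of GINS1, and lay between -0.14 and 0.07. The group medians were -0.03 and 0.04.

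In the polymerase group 0 of 9 members passed, with medians of -0.05 and -0.10. PRIM1, the catalytic subunit of primase, was at 7.89 in the wtAPE1 line with doxycycline and 7.41 without, at 7.77 and 7.75 in the ubAPE1 line, and at 7.91 and 8.08 in the vector line. The 4 APE1 line samples lay below both vector samples, by 0.02 log2 at the closest and 0.67 at the widest. The differences were -0.34 and -0.24 (limma adjusted p = 0.252 and 0.632). PRIM2, the regulatory subunit, was at 6.32 and 5.99, at 5.97 and 6.69, and at 6.64 and 6.27 in the same order, so that its samples overlapped between lines. Its differences were -0.30 and -0.13. The other 7 members, subunits of polymerases alpha, delta and epsilon, lay between -0.21 (POLA2) and 0.14 (POLD1), both in the wtAPE1 line.

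The clamp group had medians of -0.16 and -0.07, and 0 of 7 members passed. RFC1, the large subunit of the clamp loader, was at 7.32 and 7.05 in the wtAPE1 line, at 7.02 and 7.46 in the ubAPE1 line and at 7.56 and 7.47 in the vector line. RFC3, a small subunit, went the other way, at 9.36 and 8.95, at 9.19 and 9.40, and at 8.85 and 9.05. For RFC1 all 4 APE1 line samples lay below both vector samples, the nearest (7.459 against 7.466) by very little. For RFC3 the samples overlapped. Their differences were -0.33 and -0.27 for RFC1 and 0.20 and 0.34 for RFC3, and none passed. RFC3 is the measured member on chromosome 13, where the median row differed by 0.21 in both lines. RFC2, RFC4 and RFC5, further small subunits, lay between -0.19 and 0.04. The RPA genes, whose products coat single-stranded DNA, were at -0.10 and 0.07 (RPA1) and -0.23 and -0.13 (RPA2).

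The 4 nucleotide supply genes had medians of -0.12 and -0.01. Thymidine kinase 1 (TK1) was at 8.35 and 8.34 in the wtAPE1 line, at 8.77 and 8.39 in the ubAPE1 line and at 8.23 and 8.46 in the vector line, so the ubAPE1 column with doxycycline was the highest. Thymidylate synthase (TYMS) was at 9.42 and 9.49, at 9.62 and 9.52, and at 9.62 and 9.68. The ubAPE1 and vector samples of TYMS overlapped. TYMS is the measured member on chromosome 18, and its differences of -0.19 and -0.08 were smaller than that chromosome's medians. The ribonucleotide reductase subunits were at -0.09 and 0.01 (RRM1) and -0.15 and -0.03 (RRM2).

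**Figure D3:**
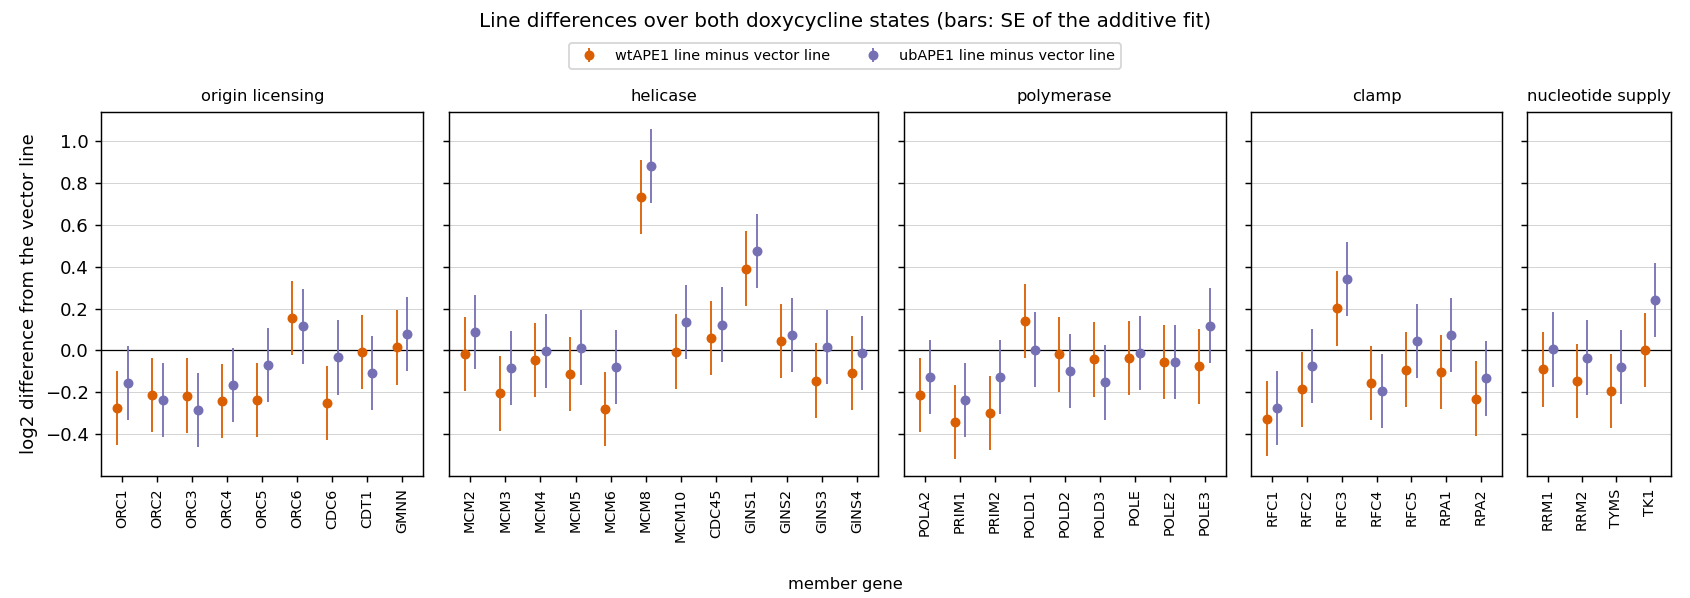
Log2 difference from the vector line over both doxycycline states (vertical axis) for each member, with the wtAPE1 line left of the ubAPE1 line in each pair. Bars are the SE of the additive fit, 0.18 log2 for every row. MCM8 stands at 0.73 and 0.88, GINS1 at 0.39 and 0.47, and the other members lie between -0.34 and 0.34.

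Between the ubAPE1 and wtAPE1 lines 0 of 41 members passed, where 0.00861% of rows did. Of the members 33 lay above 0, with a median of 0.10 log2, against 5640 of 11619 rows and a median of -0.0041. The counts differed between the doxycycline states. Without it 37 of 41 members were higher in the ubAPE1 line (median 0.18, against 47.7% of rows above 0), and with it 14 of 41 were (median -0.04, against 52.6%). Likewise, without doxycycline 37 of 41 members were below the vector line in the wtAPE1 line (median -0.16, where 53.9% of rows lay above 0), and with it 22 of 41 were (median -0.03). These counts rest on single columns, share the wtAPE1 column without doxycycline, and carry no test.

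Doxycycline responses inside each line have 1 column on each side and carry no test. At least 1.5-fold (0.58 log2) was used as a size rule. Of the 41 members, 0 passed it in the wtAPE1 line, where 0.93% of rows did (0.448% higher, 0.482% lower). In the ubAPE1 line 1 member passed, where 4.46% of rows did (1.71% higher, 2.75% lower), and in the vector line 0, where 0.895% of rows did (0.379% higher, 0.516% lower). The median member was at 0.13, -0.13 and -0.06 log2 in the wtAPE1, ubAPE1 and vector lines, against -0.01, 0.04 and 0.02 over all kept rows. Of the 41 members, 31, 15 and 17 lay above 0, against 5541, 6342 and 6264 of 11619 rows. Every wtAPE1 response subtracts the wtAPE1 column without doxycycline, which also enters the line counts above. Relative to each row's mean over all columns, the members averaged -0.12 log2 in that column and 0.01 in the wtAPE1 column with doxycycline. The 31 members above 0 are therefore not a result separate from those line counts.

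The 1 member past the rule was PRIM2, which was 0.72 log2 lower with doxycycline in the ubAPE1 line, at 5.97 with it and 6.69 without. In the wtAPE1 line it was at 6.32 and 5.99 and in the vector line at 6.64 and 6.27, which is 0.33 and 0.37 higher with doxycycline. Partial copies of PRIM2 exist in the human genome, and how far its probes also read them is not stated in the labels.

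All 6 subunits of the origin recognition complex were lower with doxycycline in the ubAPE1 line, from -0.48 (ORC2) to -0.18 (ORC1). In the wtAPE1 line 5 of 6 lay above 0, between -0.03 and 0.23, and in the vector line 2 of 6 did, between -0.19 and 0.11. CDC6 was at 0.33, -0.20 and 0.05 in the wtAPE1, ubAPE1 and vector lines. CDT1 was the licensing member that ran the other way in the ubAPE1 line, at 0.03, 0.38 and -0.24.

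In the helicase group, GINS3 had the highest response in the wtAPE1 line, and was at 0.46, 0.08 and 0.07 in the wtAPE1, ubAPE1 and vector lines. GINS2 was the lowest in the wtAPE1 and vector lines, at -0.14, 0.05 and -0.28. MCM6 was lowest in the ubAPE1 line, at 0.23, -0.35 and 0.27 in the wtAPE1, ubAPE1 and vector lines. MCM5, a subunit of the same ring, was at 0.29, 0.30 and -0.26. The 5 measured ring subunits all lay above 0 in the wtAPE1 line, between 0.0049 and 0.29. They did not share a direction in the ubAPE1 line (-0.35 to 0.30) or in the vector line (-0.26 to 0.27). MCM2 stayed between 0.00 and 0.05 in all 3 lines.

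Among the polymerase genes PRIM1 was highest in the wtAPE1 line, at 0.48, 0.02 and -0.17 in the wtAPE1, ubAPE1 and vector lines. The polymerase epsilon subunit POLE2 lay below 0 in all 3 (-0.13, -0.39 and -0.34) and the delta subunit POLD2 above 0 (0.27, 0.27 and 0.02). POLE3 was the lowest of the group in the wtAPE1 line, at -0.24, and POLD3 in the vector line, at -0.36. In the clamp group RFC4 was at -0.14, -0.46 and 0.13, RFC1 at 0.27, -0.44 and 0.10, RFC3 at 0.41, -0.21 and -0.20 and RPA1 at 0.41, 0.05 and -0.03. Of the nucleotide supply genes, TK1 was at 0.00, 0.38 and -0.23, RRM1 at 0.22, -0.08 and 0.03 and TYMS at -0.07, 0.10 and -0.06, and RRM2 stayed between -0.13 and 0.07.

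**Figure D4:**
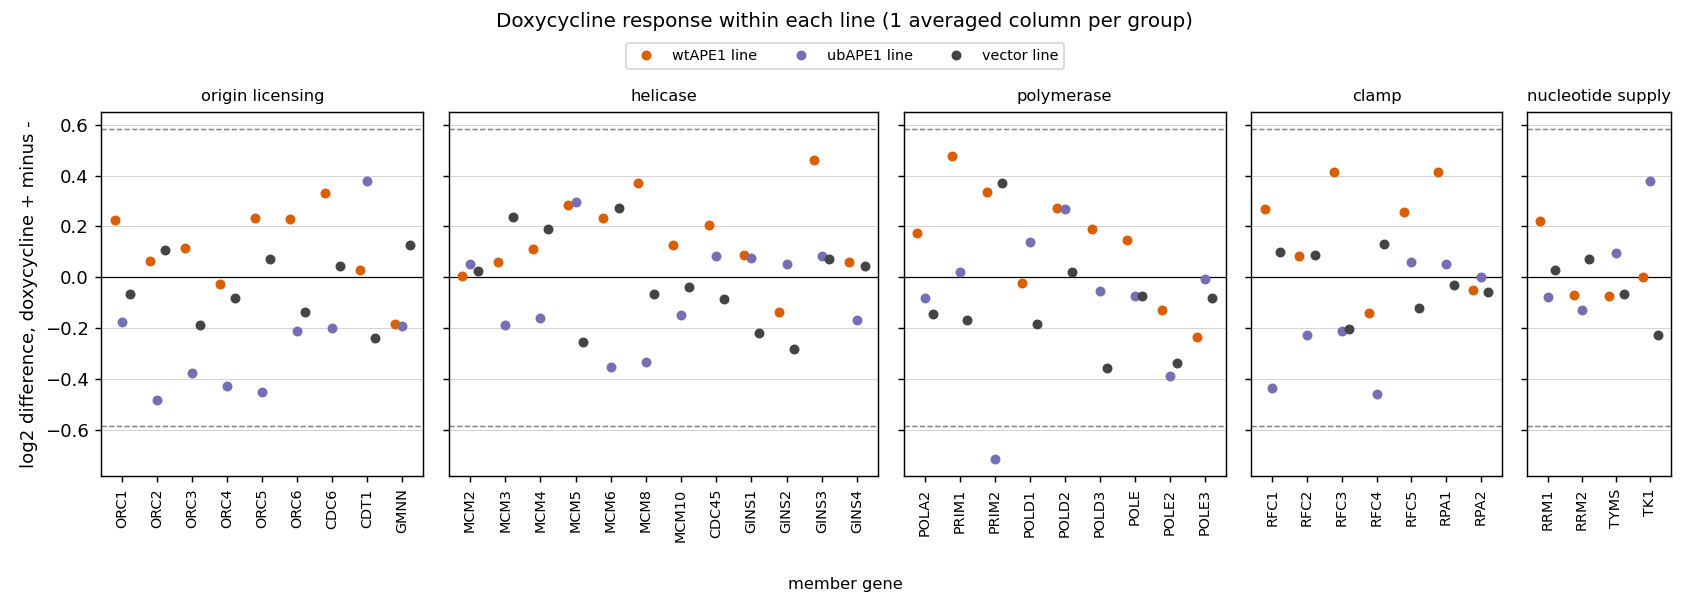
Doxycycline response (log2, with minus without, vertical axis) of each member in the wtAPE1, ubAPE1 and vector lines, 1 averaged column on each side. Dashed lines mark 1.5-fold. PRIM2 at -0.72 in the ubAPE1 line is the point outside them, and the 6 ORC genes of that line all lie below 0.

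The ubAPE1 response went with gene length. In 4 classes of genomic length, with bounds at 11.2, 28.8 and 70.9 kb, the median row of the ubAPE1 line was at 0.21, 0.09, -0.05 and -0.12 log2, from the shortest class to the longest. For the wtAPE1 line the medians were -0.07, -0.03, 0.03 and 0.03, and for the vector line -0.02, 0.01, 0.03 and 0.05. The 5, 14, 14 and 8 members in these classes had medians of -0.0063, 0.01, -0.08 and -0.40 in the ubAPE1 line, so the shortest class did not stand above the second as it did over all rows. Across the 41 members, Spearman's rho between length and response was 0.32, -0.42 and 0.00 in the wtAPE1, ubAPE1 and vector lines, and across all rows with a length 0.22, -0.41 and 0.15. Genes are not independent replicates, and these values describe the columns. With the median response of 20 length bins removed, PRIM2 was at -0.61 in the ubAPE1 line, ORC2 at -0.43, ORC5 at -0.32 and RFC4 at -0.56, and the median of the 41 members was -0.09. Without centring, 6 members passed the rule in the ubAPE1 line (PRIM2, ORC2, RFC4, ORC5, RFC1 and ORC4), all lower, where 8.94% of rows passed it and 8.57% were lower. Leaving out the centring changed every response of that line by -0.17 log2.

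**Figure D5:**
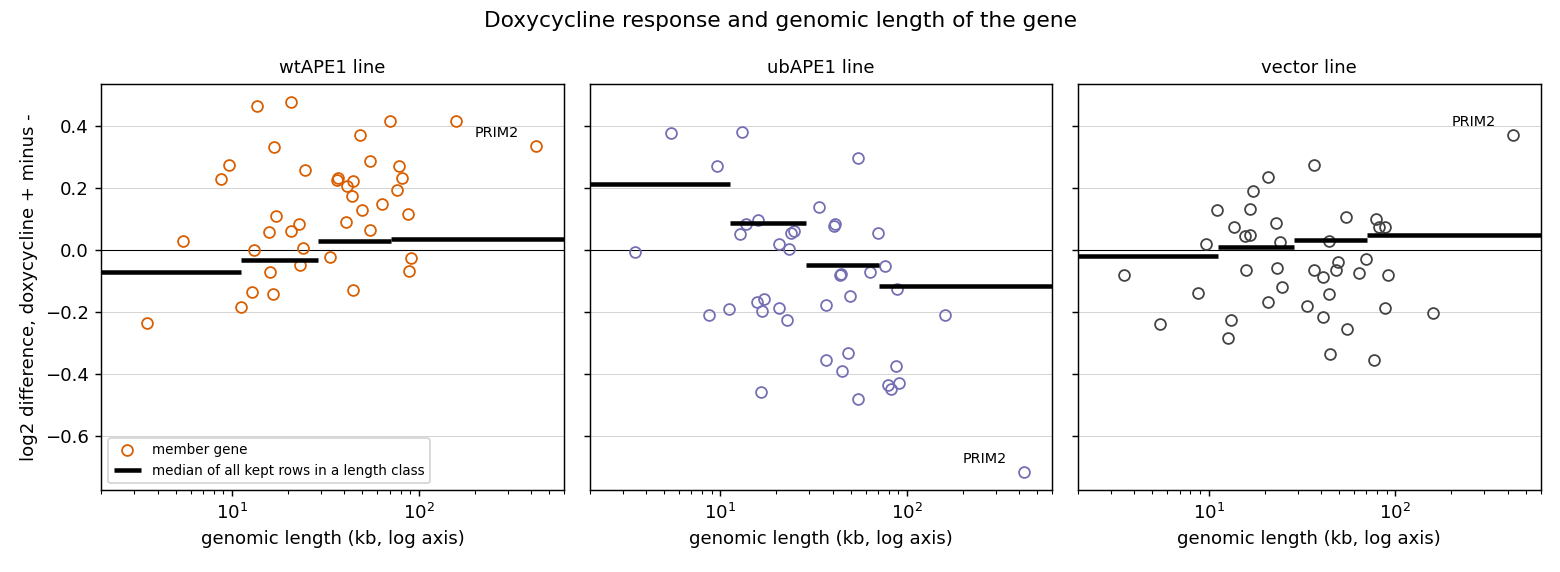
Doxycycline response (log2, vertical axis) of the 41 members (circles) against genomic length (kb, log axis) in the wtAPE1, ubAPE1 and vector lines. Black lines are the median of all kept rows in 4 length classes. In the ubAPE1 line these fall with length, from 0.21 to -0.12, and the longest member, PRIM2, lies lowest at -0.72.

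The doxycycline term of the additive fit takes the 3 lines as replicates. By limma 0 of 41 members passed it, where 0.0775% of rows did (0.0344% higher, 0.043% lower), and 1 member, POLE2, had an unadjusted p under 0.05, where 2.55% of rows did. POLE2 was at -0.29 ± 0.15 log2 (SE) and GINS3, the highest, at 0.21. In simulated data of this size and noise, 65.5% of rows changed 1.5-fold and 99.5% of rows changed 2-fold were recovered for this comparison. The simulated noise was that of the additive fit and held no spread between biological replicates or clones. These rates are therefore not the power of the design.

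Induced APE1 was last tested as a term over both APE1 lines beyond doxycycline itself. By limma 0 of 41 members passed, where 0% of all rows did, and 0 had an unadjusted p under 0.05, where 1.88% of rows did. The lowest member was PRIM2 (-0.56) and the highest MCM5 (0.55), with a SE of 0.34. Simulated rows changed 1.5-fold and 2-fold were recovered by this fit in 2% and 0% of cases. Each value is a single simulated draw, at the noise of the additive fit (SD 0.18). APEX1, the induced gene, was itself at 0.82 and did not pass. These counts therefore set no bound on effects of those sizes. As sizes only, the response of the wtAPE1 line exceeded that of the vector line by at least 1.5-fold for 2 members, PRIM1 (0.65) and RFC3 (0.62), against 3.91% of rows in either direction. For the ubAPE1 line 6 members were past that size, against 13% of rows, with CDT1 (0.62) and TK1 (0.61) higher and PRIM2 (-1.09), MCM6 (-0.63), RFC4 (-0.59) and ORC2 (-0.59) lower. Both subtract the same vector response.

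Genes that work beside the members were read from lists. Of 31 other replication fork genes 23 were kept, and 0 passed in any line or doxycycline test. The highest and lowest line differences in the wtAPE1 line were 0.38 for CHTF18, of the alternative clamp loader, and -0.27 for CLSPN, which links the fork to the checkpoint. In the ubAPE1 line they were the same genes, at 0.23 and -0.23. In the ubAPE1 response to doxycycline 3 of these were at least 1.5-fold lower, CLSPN (-0.75), the kinase CDC7 (-0.65) and TOPBP1 (-0.63). The small polymerase delta subunit POLD4 was higher (0.69). Over all kept rows 2.75% were that much lower and 1.71% higher. With the median response of length bins removed, these 4 genes were at -0.70, -0.71, -0.54 and 0.41, so TOPBP1 and POLD4 no longer passed the size rule. CLSPN, CDC7, TOPBP1 and POLD4 were at -0.10, -0.17, 0.06 and -0.10 in the wtAPE1 line, and at 0.09, 0.07, 0.11 and 0.10 in the vector line. Of 30 other nucleotide synthesis genes 23 were kept and 0 passed a test. The lowest line differences were those of the nucleoside transporter SLC29A1 (-0.33 and -0.30), and the highest were IMPDH1 in the wtAPE1 line (0.37) and PFAS in the ubAPE1 line (0.26). The purine enzyme PAICS was 0.62 log2 lower with doxycycline in the ubAPE1 line, and was at -0.27 in the wtAPE1 line and -0.01 in the vector line.

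Of 28 regulators of the G1/S step 24 were kept. Cyclin D2 (CCND2) was lower than in the vector line, with differences of -0.62 in the wtAPE1 line (by limma, adjusted p = 0.0150) and -0.63 in the ubAPE1 line (adjusted p = 0.0127), with levels of 9.27 and 9.11, 9.19 and 9.15, and 9.99 and 9.62 in the wtAPE1, ubAPE1 and vector lines. These calls were lost with the columns as deposited, where the differences were larger (-0.79 and -0.74, adjusted p = 0.0579 and 0.0890). They were also lost with the finite prior, at the same differences (limma adjusted p = 0.174 and 0.177). With chromosome medians removed they were lost too (-0.55 and -0.62, limma adjusted p = 0.0885 and 0.0598), though the ubAPE1 difference hardly moved. The SE differed between rows in that setting. For CCND2, and for HMMR below, the removed medians and the changed variance model were therefore not separated. The highest of the list were E2F7 in the wtAPE1 line (0.29) and MYBL2 in the ubAPE1 line (0.34), and E2F6 was 0.59 log2 lower with doxycycline in the ubAPE1 line and at 0.14 and 0.06 in the wtAPE1 and vector lines. Of 18 mitosis genes 15 were kept, and HMMR, a spindle protein gene, was lower in the wtAPE1 line (-0.58, adjusted p = 0.0267 by limma) and at -0.44 in the ubAPE1 line (adjusted p = 0.175). The call for HMMR was lost with the columns as deposited (-0.75, adjusted p = 0.195), with the finite prior at the same difference (adjusted p = 0.345) and with chromosome medians removed (-0.46, adjusted p = 0.206). With doxycycline in the ubAPE1 line HMMR was at -0.91 and the spindle checkpoint kinase TTK at -0.80, both past 1.5-fold. In the wtAPE1 and vector lines HMMR was at -0.08 and -0.03 and TTK at -0.16 and -0.08. Of the 15 mitosis genes 0, 2 and 0 were past 1.5-fold in the wtAPE1, ubAPE1 and vector lines, against 0.93%, 4.46% and 0.895% of rows. Their median response was 0.24, -0.18 and -0.08 log2, with no test. The part of cell cycle stage in the members' values was not tested.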

How the data were processed

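The deposited values are log2 levels per array row (transcript cluster) for 6 samples, each averaged by the authors over 3 biological replicates, per the labels. No label names the scale, and log2 fits the range of the values. How probes were summarised and normalised is not given in the sources used here. Build hg 18 is named in the submitters' processing notes, while promoters and gene lengths are from GRCh38.p14. Of 15492 rows, 12616 have 1 gene symbol, 2031 several and 845 none.

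Rows with a mean at or above the 25th percentile were kept (11619), and each column was centred on its median. Tests used limma 3.58.1 in R 4.3.3 (lmFit, eBayes). The additive fit had 2 residual degrees of freedom and an infinite prior, so every row has the same SE (0.18 log2 between lines). The induction fit had 1. P-values of these fits rest on how unevenly the lines responded to doxycycline, pooled into 1 SD over all rows. They do not measure a gene's own spread over lines or doxycycline states, or the spread between biological replicates. Simulated data (11619 rows) had a pooled SD of this kind as the only noise. There 30.5% of rows changed 1.5-fold and 99.0% changed 2-fold were recovered between the wtAPE1 and vector lines.

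The members and lists were chosen with earlier results of these data known. Values in all samples are given for members past a threshold and, in each role group, the 2 with the largest line difference. In a response, members past 1.5-fold or else the highest and lowest are named. Other members are given by their differences. TRMT6, CRLS1, ABHD12 and NINL were chosen after their values were seen.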

Additional observations from a re-analysis of the deposited data

Results flagged for a closer look

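PRIM2 responded to doxycycline in opposite directions between lines. The response in the ubAPE1 line was lower than that in the wtAPE1 line by a difference of -1.05 log2, and lower than that in the vector line by a difference of -1.09 log2. With 1 averaged column in each group these differences were not tested.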

How the results depend on the processing

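Counts of rows past the threshold in the wtAPE1, ubAPE1, fusion against wild-type and common doxycycline comparisons were 656, 539, 1 and 9, and 0 for induction. With columns as deposited they were 245 (12 higher, 233 lower), 162 (10 and 152), 0 and 0. With the prior of that fit they were 143, 119, 0 and 0. With chromosome medians removed, where the SE also differed between rows, the first 2 were 317 and 267. In these 3 settings 0 members passed against the vector line, while 1 passed after quantile normalization, without a filter, above the 50th percentile and with a robust trended prior. Above the 50th percentile the counts were 362, 298, 0 and 3, and 1 for induction. Without a filter 13, 16 and 14 rows passed in the last 3, and after quantile normalization 0 and 2 passed in the fusion and doxycycline comparisons. With only the wtAPE1 and vector lines, 2296 rows and 2 members passed (GINS1, adjusted p = 0.0329). The doxycycline count was 4 without the vector line, 4 without the wtAPE1 line, 31 without the ubAPE1 line and 0 with no line term. Rows past 1.5-fold in the wtAPE1, ubAPE1 and vector responses were 108, 518 and 104. They were 272, 848 and 264 without a filter, 280 and 61 in the ubAPE1 and vector lines above the 50th percentile, and 7, 14 and 7 at 2-fold, where 0 members passed. As deposited they were 157 (123 higher), 1039 (43 higher) and 123 (23 higher), with 6 ubAPE1 members. TK1 against the vector line in the wtAPE1 line, at 0.0027, turned to -0.17 as deposited, -0.018 without a filter and -0.024 with chromosome medians removed. In that last setting TYMS turned to 0.18 and 0.29 and PRIM2 in the ubAPE1 line to 0.047. The causes were not tested. No member had a second row. No paired analysis was possible because each group is 1 column with no replicate number, beyond the additive fit itself, which sets the doxycycline states within lines.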
